A study of Mus musculus with 12 samples.

Results

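Dendritic cells (DCs) sorted from mouse tumors were compared with DCs grown from wild-type (WT) bone marrow, through the genes whose level placed all 4 libraries of one source on one side of all 4 libraries of the other. The level was CPM, a gene's count scaled to a fixed total per library. Of 32190 gene symbols, 6380 (19.8%) were separated in this way. Among them, 3102 symbols (9.64%) lay higher in tumoral DCs and 3278 (10.2%) lay lower. No count fell on 11523 symbols in any of the 8 libraries, and these could not be separated.

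The tumoral DCs came from tumors named as MC38 in mice labelled WT that carry a TdTomato reporter of Zbtb46, with 2 libraries at the late stage (day 14) and 2 at the early stage (day 7). The MC38 line derives from a colon carcinoma of the mouse. The bone marrow-derived DCs (BMDCs) were WT and carried a labelled time of 9 days, with 2 libraries exposed to lipopolysaccharide (LPS) at 200 ng/ml for 12 h and 2 left unstimulated. LPS is a bacterial activator of Toll-like receptor signalling. The series of 12 libraries also holds 4 BMDC libraries labelled Pde5 knockout. Their values stand beside a few results, and they entered the fit that tested LPS against unstimulated WT BMDCs. The sources used here state no sort gates, culture cytokines or host strain, and the extraction text in the labels names another tissue. Nothing in the labels ties the 2 libraries of a group to separate mice or dishes. The p-values therefore rest on the spread among these libraries alone, and that spread may be technical. The tumoral and the BMDC libraries stand in separate tables, so source and batch cannot be told apart. In bulk libraries of this kind, fewer cells of a type and less RNA per cell cannot be told apart either.

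Conventional DCs (cDCs) capture antigen in tissues, mature, and travel to lymph nodes through the chemokine receptor Ccr7 to prime T cells. The cDC1 subset cross-presents antigen to CD8 T cells and the cDC2 subset mainly primes CD4 T cells, while monocytes and macrophages that enter tumors share part of the DC surface program. Zbtb46, the gene of the reporter, encodes a transcription factor of the cDC lineage that is also active in endothelial cells. BMDCs grow from marrow progenitors under added cytokines and can mature in the dish without a stimulus.

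Library totals ran from 14153700 to 19293261 counts in tumoral DCs and from 16122941 to 17843114 in WT BMDCs. A count fell on 14886 to 16963 symbols in tumoral DCs and on 16037 to 16846 in WT BMDCs. The first principal component held 67.8% of the variance and set all tumoral libraries apart from all WT BMDC libraries. Tested with edgeR's quasi-likelihood method at an adjusted p under 0.05, 8366 of 13772 genes (60.7%) differed between the sources, of which 4378 (31.8%) were higher and 3988 (29.0%) lower in tumoral DCs. Of the separated genes, 2938 higher and 3090 lower ones were among the genes tested, which is 21.3% and 22.4% of the genes tested and 43.8% together. The remaining 164 and 188 had too few counts. Since the rule and this test use the same libraries, the test is read here for genes and lists not picked by the gap. Counts per list between the sources are to be read beside the 31.8% higher and 29.0% lower of all genes tested.

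**Figure D1:**
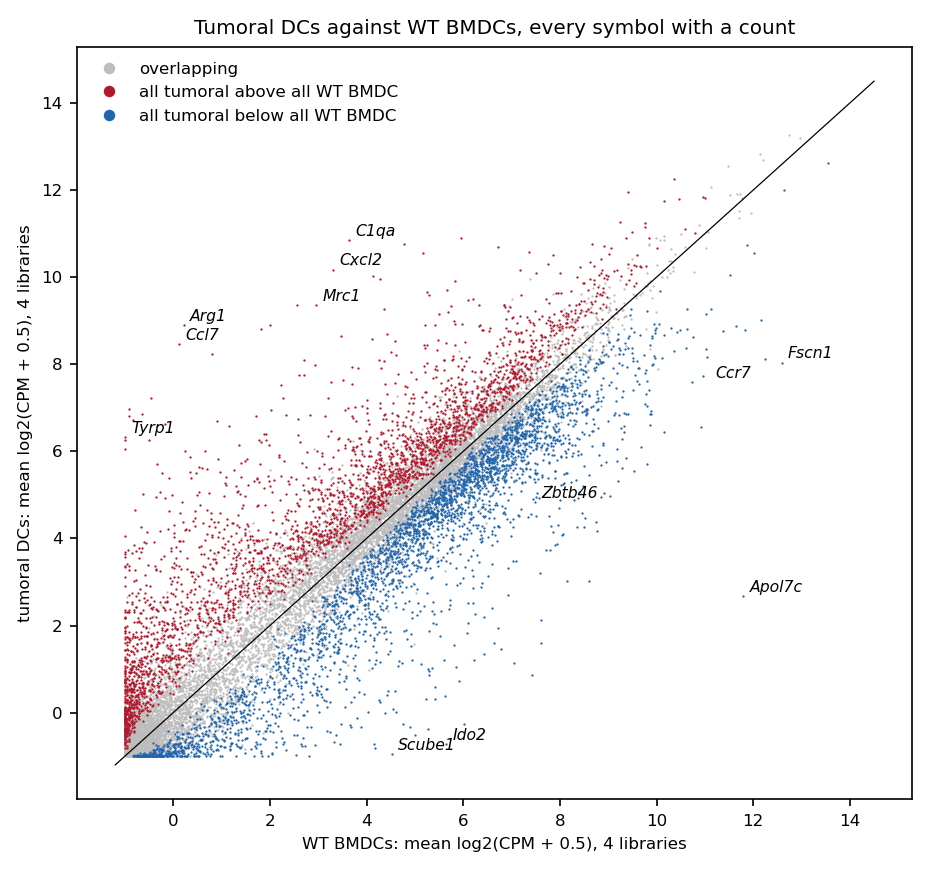
Mean log2(CPM + 0.5) of the 4 tumoral libraries (vertical) against that of the 4 WT BMDC libraries (horizontal), 1 point per symbol with a count, with the line of equal values. Red points are the 3102 symbols with all tumoral libraries above all WT BMDC libraries and blue points the 3278 with all below.

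The gap of a gene was the log2 ratio of the nearest libraries of both sources after adding 0.5 CPM. It was at least 2-fold for 608 genes higher and 605 lower in tumoral DCs, at least 8-fold for 76 higher and 50 lower, and at least 32-fold for 14 higher and 3 lower. At the edge of the rule, Hspa8 was just inside on the higher side, with a lowest tumoral value of 1930.24 CPM and a highest WT BMDC value of 1930.21 CPM. Syk was just outside, with 404.56 CPM in its lowest tumoral and 404.58 CPM in its highest WT BMDC library. On the lower side, Stag1 was just inside, with 72.64 CPM in its highest tumoral and 72.65 CPM in its lowest WT BMDC library. Tmem50b was just outside, at 96.79 CPM in both.

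On the higher side, Ccl7, a monocyte-attracting chemokine, had 430 and 406 CPM in late and 238 and 376 CPM in early tumoral DCs, against 0.448 and 0.635 CPM in LPS-treated and 0.829 and 0.496 CPM in unstimulated WT BMDCs. Its gap of 7.49 on the log2 scale was the widest of the higher genes with a mean of at least 10 CPM in tumoral DCs. C4b, a complement component, had 88.6 and 124 CPM in late and 241 and 90.8 CPM in early tumoral DCs and 2 counts over the WT BMDC libraries, a ratio of 4805 with a 95% interval of 1330 to 39679 that covers counting error alone. Retnla, a secreted protein of alternatively activated myeloid cells in mice, had 19.0 and 76.0 CPM late and 189 and 118 CPM early, against no count in any WT BMDC library. Set against a floor of 3 counts over the 4 WT BMDC libraries, Retnla was at least 2413-fold higher, and the chemokine gene Ccl12, with 40.8 to 109 CPM in the tumoral libraries, was at least 1570-fold higher.

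Arg1, which encodes an arginine-degrading enzyme, had 944 and 917 CPM late and 135 and 451 CPM early in tumoral DCs, against 0.448 and 1.10 CPM in LPS-treated and 0.415 and 0.806 CPM in unstimulated WT BMDCs. Mgl2, a galactose-binding lectin of cDC2s and macrophages, had 115 to 192 CPM in tumoral DCs and at most 0.558 CPM in WT BMDCs. Mrc1, the mannose receptor, had 583 to 707 CPM in tumoral DCs and 3.46 to 14.2 CPM in WT BMDCs. Fn1, which encodes fibronectin, had 1342 to 2560 CPM in tumoral DCs and 17.3 to 42.2 CPM in WT BMDCs. None of these ranges touched. The remaining genes among the 20 widest gaps on this side were Tyrp1, Dct, Fcrls, Ccl2, Ccl8, Cbr2, Cxcl9, Ccl6, Hspa1a, Cxcl2, C1qa and Dok2.

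On the lower side, Apol7c, a member of the apolipoprotein L family, had the widest gap, 8.10 on the log2 scale. It had 8.84 and 4.80 CPM in late and 3.99 and 6.97 CPM in early tumoral DCs, against 4402 and 4263 CPM in LPS-treated and 3332 and 2563 CPM in unstimulated WT BMDCs. The 4 libraries labelled Pde5 knockout held 2141 to 2758 CPM. Ahrr, a repressor of the aryl hydrocarbon receptor, had 0.495 to 2.54 CPM in tumoral DCs and 164 to 179 CPM in WT BMDCs. Ido2, an enzyme of tryptophan breakdown, had at most 0.466 CPM in tumoral DCs and 29.0 to 73.9 CPM in WT BMDCs. Scube1, a secreted protein with epidermal growth factor repeats, had 1 count over the 4 tumoral libraries and 1712 over the WT BMDC libraries, 1670 times as much per library total in WT BMDCs (95% counting interval 299 to 66003).

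Cx3cl1, the membrane-bound chemokine fractalkine, had 4.35 to 12.0 CPM in tumoral DCs and 164 to 219 CPM in WT BMDCs. Sema6d, a semaphorin, had 13.4 to 22.1 CPM in tumoral DCs and 340 to 562 CPM in WT BMDCs. Oprd1, the delta opioid receptor gene, had 0.570 to 3.60 CPM in tumoral DCs and 82.2 to 203 CPM in WT BMDCs. The remaining genes among the 20 widest gaps were Ndrg4, Scube3, Atp8b3, Slco5a1, Kctd14, Synpo2, Lad1, Apol10b, Ptk6, Exoc3l4, Zfp872, Extl1 and Stap2.

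**Figure D2:**
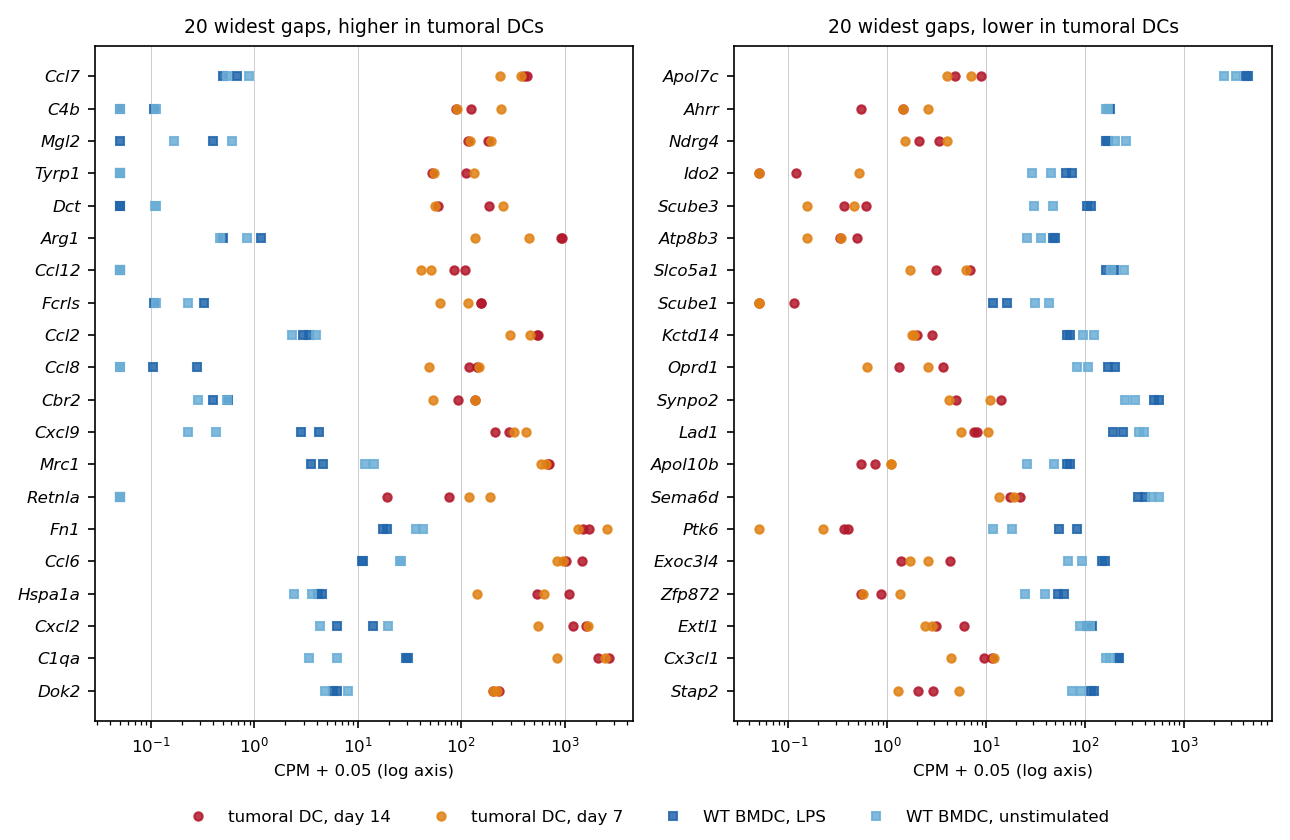
CPM + 0.05 on a log axis in each library for the 20 genes with the widest gaps in each direction. Circles are the 4 tumoral libraries and squares the 4 WT BMDC libraries, and no circle of a gene overlaps its squares, by the rule that chose them. Ccl7 leads the left panel at 238 to 430 CPM in tumoral DCs and Apol7c the right panel at 3.99 to 8.84 CPM.

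Some neighbouring genes fell on the same side, which was looked at after the values were seen. On chromosome 11 of GRCm38, Ccl2, Ccl7, Ccl11, Ccl12, Ccl8 and Ccl1 lie between 82035577 and 82179812, and all 6 were higher in every tumoral library. Over all symbols, those without a count included, 9.64% were higher in this way, and over the genes tested 21.3% were. Ccl2, the main ligand of the monocyte receptor Ccr2, had 298 to 549 CPM in tumoral DCs and 2.25 to 3.91 CPM in WT BMDCs. Ccl8 had 48.4 to 148 CPM in tumoral DCs and at most 0.231 CPM in WT BMDCs. In a further stretch from 83525778 to 83664683, Ccl9, Ccl6, Ccl3 and Ccl4 were higher, while Ccl5, a T cell-attracting chemokine, was lower at 57.6 to 179 CPM in tumoral DCs against 553 to 1389 CPM in WT BMDCs. Ccl3 and Ccl4 overlap in the annotation, so their counts are uncertain to that extent.

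Apolipoprotein L genes form a cluster on chromosome 15 between 77045050 and 77757062. Of its 12 genes with a count, 5 were lower in every tumoral library and 7 overlapped. In this way 10.2% of all symbols, those without a count included, and 22.4% of the genes tested were lower. Beside Apol7c, Apol10b had 0.495 to 1.05 CPM in tumoral DCs and 25.7 to 69.9 CPM in WT BMDCs. The other 3 that were lower, Apol7a, Apol7b and Apol11a, stayed under 1 CPM in all 8 libraries. In the libraries labelled Pde5 knockout, Apol7a and Apol7b overlapped the tumoral range. Ido1 and Ido2 are neighbours on chromosome 8 between 24531892 and 24596952 and were both lower. Ido1 had 0.116 to 0.622 CPM in tumoral DCs and 13.6 to 45.0 CPM in WT BMDCs. Members of these families are close copies in part, and the counts of paralogs that share reads are uncertain.

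The label of the cells was set against the genes that define DCs. Zbtb46 had 29.1 and 21.8 CPM in late and 21.9 and 44.1 CPM in early tumoral DCs, against 253 and 241 CPM in LPS-treated and 134 and 124 CPM in unstimulated WT BMDCs. Its log2 fold change of tumoral over WT BMDC libraries was −2.64 (SE 0.249, edgeR adjusted p = 7.18e-05). The libraries labelled Pde5 knockout held 187 to 254 CPM. Zbtb46 overlaps Lime1 and Zgpat in the annotation, so its count may include theirs. Counts assigned to the reporter's gene were found in all 4 tumoral libraries, at levels under every WT BMDC library.

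Growth factor receptors and transcription factors of the cDC lineage were mostly lower in tumoral DCs. Flt3, the receptor for the main growth factor of cDCs, had 70.4 to 131 CPM in tumoral DCs and 410 to 460 CPM in WT BMDCs (log2 fold change −2.24, SE 0.231, edgeR adjusted p = 0.000109). Kit, the stem cell factor receptor, had 38.8 to 86.7 CPM in tumoral DCs and 339 to 587 CPM in WT BMDCs (−3.16). Irf8 and Batf3, transcription factors of cDC1 development, were lower, with log2 fold changes of −1.38 and −1.32. Irf4, a factor of cDC2s, was not called (−0.26, edgeR adjusted p = 0.171). Csf2rb, the signalling chain of the receptor for GM-CSF, had 305 to 667 CPM in tumoral DCs and 2485 to 3737 CPM in WT BMDCs (−2.71). Itgax, which encodes the integrin CD11c, went the other way with 389 to 483 CPM in tumoral DCs and 81.1 to 188 CPM in WT BMDCs (1.82, SE 0.114, edgeR adjusted p = 1.22e-05). In the list of 21 core cDC genes, 2 passed as higher and 14 as lower, with a median log2 fold change of −1.32 beside 0.04 over all genes tested.

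Subset genes of cDCs did not share that direction. Xcr1, the chemokine receptor of cDC1s, had 29.4 and 42.0 CPM in late and 48.0 and 46.3 CPM in early tumoral DCs, against 1.96 and 2.89 CPM in LPS-treated and 11.9 and 10.8 CPM in unstimulated WT BMDCs (log2 fold change 2.94, SE 0.19, edgeR adjusted p = 1.39e-05). Clec9a, the cDC1 receptor for dead cells, had 19.4 to 47.0 CPM in tumoral DCs, against 7.17 and 10.7 CPM in LPS-treated and 41.7 and 53.5 CPM in unstimulated WT BMDCs. Its tumoral values lay above both LPS-treated libraries and overlapped the unstimulated ones (0.56, SE 0.196, edgeR adjusted p = 0.0362). Of 17 cDC1 genes, 11 passed as higher and 2 as lower, with a median of 0.73. The 2 lower ones, Irf8 and Batf3, are also in the core cDC list. The count of higher ones was 7 without the second late tumoral, the first unstimulated or the first LPS library. Against unstimulated WT BMDCs alone, where 46.0% of all genes were called (22.8% higher and 23.2% lower), 5 cDC1 genes were higher and 5 lower (median −0.24). Against LPS-treated ones, where 58.5% were called (29.9% higher and 28.7% lower), 12 were higher and 2 lower (median 1.70). These contrasts share the tumoral libraries.

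Genes of cDC2s were higher in 12 of 20 cases and lower in 4, with a median of 1.79. Cd209a, a lectin of cDC2s and monocyte-derived DCs, had 31.8 and 50.8 CPM in late and 32.4 and 81.0 CPM in early tumoral DCs, against no count in LPS-treated and 4.44 and 11.2 CPM in unstimulated WT BMDCs (2.76 against the unstimulated ones, SE 0.566, edgeR adjusted p = 0.00705). Clec10a, another lectin, had 74.1 to 130 CPM in tumoral DCs and 0.168 to 13.1 CPM in WT BMDCs. Itgam, which encodes the integrin CD11b, had 211 to 232 CPM in tumoral DCs and 19.2 to 32.2 CPM in WT BMDCs. Sirpa, the inhibitory receptor used to gate cDC2s, had 763 to 1151 CPM in tumoral DCs and 375 to 466 CPM in WT BMDCs (1.21, SE 0.13, edgeR adjusted p = 0.000134). Summed over the list, tumoral libraries held 2954 to 3557 CPM and WT BMDC libraries 1147 to 1516 CPM. The 4 cDC2 genes that passed as lower were S100a4 (−2.7), Clec4a4 (−2.46), Epcam (−1.45) and Notch2 (−0.67). S100a4 and Clec4a4 were lower in every tumoral library. Irf4, Tnip3, Ltb and Cd7 were not called. Macrophage and monocyte genes were higher as well, as given below, and which cells held the cDC2 transcripts was not tested.

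**Figure D3:**
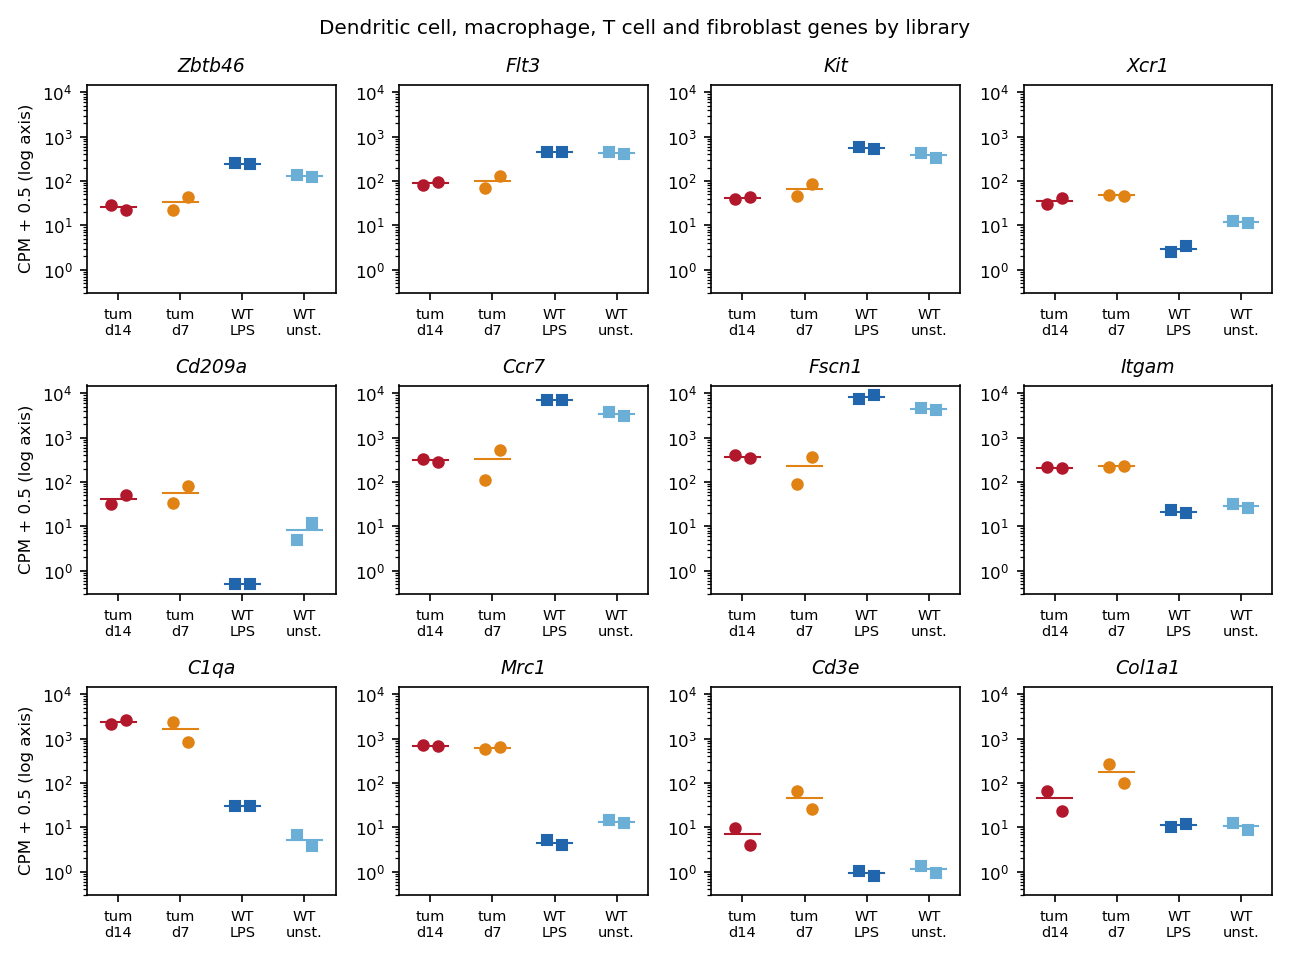
CPM + 0.5 on a log axis, on the same scale in every panel, for 12 genes in tumoral DCs on day 14 and day 7 and in WT BMDCs with LPS and unstimulated. Points are the 2 libraries of a group and bars their mean. Zbtb46, Flt3, Kit, Ccr7 and Fscn1 sit lower in all tumoral libraries, and the other 7 genes sit higher.

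Genes of DC maturation and migration were lower almost throughout the list. Of 27 tested members, 22 passed as lower and 1 as higher, with a median of −2.66 (against unstimulated WT BMDCs −1.98, against LPS-treated ones −3.43). Ccr7, the receptor that leads mature DCs to lymph nodes, had 336 and 288 CPM in late and 112 and 538 CPM in early tumoral DCs, against 6921 and 7044 CPM in LPS-treated and 3755 and 3034 CPM in unstimulated WT BMDCs (−3.93, SE 0.48, edgeR adjusted p = 0.00025). Fscn1, the actin-bundling protein of mature DC dendrites, had 91.4 to 397 CPM in tumoral DCs and 4278 to 9394 CPM in WT BMDCs (−4.39). Il12b, a subunit of interleukins 12 and 23, had 26.8 to 114 CPM in tumoral DCs and 511 to 966 CPM in WT BMDCs (−3.84, SE 0.491, edgeR adjusted p = 0.000315). The unstimulated WT BMDCs already held these transcripts above every tumoral library. Ccl17, a chemokine of DCs, was the member that passed as higher, with 9.74 to 21.4 CPM in tumoral DCs and 1.67 to 4.90 CPM in WT BMDCs. Ccl22, which binds the same receptor, had 98.6 to 290 CPM in tumoral DCs and 1738 to 2537 CPM in WT BMDCs. Summed over the list, tumoral libraries held 2469 to 4519 CPM, LPS-treated WT BMDCs 39291 to 42488 CPM and unstimulated ones 20407 to 24031 CPM.

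Antigen presentation genes had smaller median changes than the maturation list, although most class I genes passed. Of 16 genes for MHC class II presentation, 6 passed as higher and 2 as lower (median 0.30). H2-Ab1, a class II beta chain, had 3376 to 5351 CPM in tumoral DCs, 1094 and 1809 CPM in LPS-treated and 3325 and 3739 CPM in unstimulated WT BMDCs (0.92, SE 0.209, edgeR adjusted p = 0.00544), and its ranges overlapped in the unstimulated libraries. Cd74, the class II invariant chain, was not called, with 7232 to 11821 CPM in tumoral DCs and 5478 to 10961 CPM in WT BMDCs (0.22, edgeR adjusted p = 0.338). Ciita, the master activator of class II genes, had 154 to 247 CPM in tumoral DCs and 200 to 457 CPM in WT BMDCs (−0.78, SE 0.136, edgeR adjusted p = 0.00152), and it overlaps another tested gene in the annotation. Of 15 class I genes, 2 passed as higher and 9 as lower (median −0.43). Against LPS-treated WT BMDCs 2 passed as higher and 13 as lower (median −0.83), where 29.9% of all genes tested were higher and 28.7% lower. Against unstimulated ones 4 passed as higher and 4 as lower (median −0.10), near the 22.8% higher and 23.2% lower of all genes tested. Summed CPM of the class I list was 12852 to 15317 in tumoral DCs, 20344 and 20917 in LPS-treated and 13059 and 12172 in unstimulated WT BMDCs. Tapbp, which loads peptide onto class I, had 411 to 569 CPM in tumoral DCs and 786 to 1483 CPM in WT BMDCs (−1.16). Among 12 costimulatory genes 5 passed as higher and 3 as lower, with Cd40 at 61.1 to 104 CPM in tumoral DCs and 112 to 210 CPM in WT BMDCs.

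Macrophage and monocyte genes were higher in tumoral DCs across both lists. Of 24 macrophage genes, 20 passed as higher and 1 as lower, with a median of 2.77, and of 16 monocyte genes 15 passed as higher (median 2.56). C1qa, a chain of the complement starter C1q made by macrophages, had 2094 and 2647 CPM in late and 2438 and 839 CPM in early tumoral DCs, against 29.4 and 30.4 CPM in LPS-treated and 6.22 and 3.35 CPM in unstimulated WT BMDCs. Adgre1, which encodes the macrophage antigen F4/80, had 339 to 577 CPM in tumoral DCs and 82.6 to 169 CPM in WT BMDCs (1.93, SE 0.157, edgeR adjusted p = 3.53e-05). Apoe, an apolipoprotein of macrophages, had 2075 to 5314 CPM in tumoral DCs and 469 to 870 CPM in WT BMDCs. Gpnmb, a glycoprotein of lipid-laden and cultured macrophages, was the member that passed as lower, with 240 to 991 CPM in tumoral DCs and 2749 to 7705 CPM in WT BMDCs. Ly6c2, which marks inflammatory monocytes, overlapped with 43.2 to 162 CPM in tumoral DCs and 14.0 to 53.1 CPM in WT BMDCs. Summed CPM of the macrophage list ran from 14294 to 24419 in tumoral DCs and from 5340 to 12159 in WT BMDCs, and none of its defining markers was at 0 in the tumoral libraries. The part of such cells in the other differences was not tested.

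Of 17 complement and coagulation genes, 16 passed as higher (median 3.62), among them C3 (2.60), C5ar1 (3.62) and F13a1 (5.20), each given as a log2 fold change. C1qa, C1qb and C1qc are also in the macrophage list and F13a1 in the monocyte list. In sum over the list, tumoral libraries held 4852 to 9637 CPM and WT BMDC libraries 436 to 746 CPM. Fcgr4, an activating receptor for immunoglobulin G, had 238 and 190 CPM in late and 500 and 177 CPM in early tumoral DCs, against 24.1 and 15.7 CPM in LPS-treated and 2.96 and 1.98 CPM in unstimulated WT BMDCs. Fcgr3, another activating receptor, had 375 to 619 CPM in tumoral DCs and 25.6 to 51.1 CPM in WT BMDCs. Of 7 tested Fc receptor genes, 6 passed as higher and Trim21, a cytosolic antibody receptor, as lower (−0.67).

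**Figure D4:**
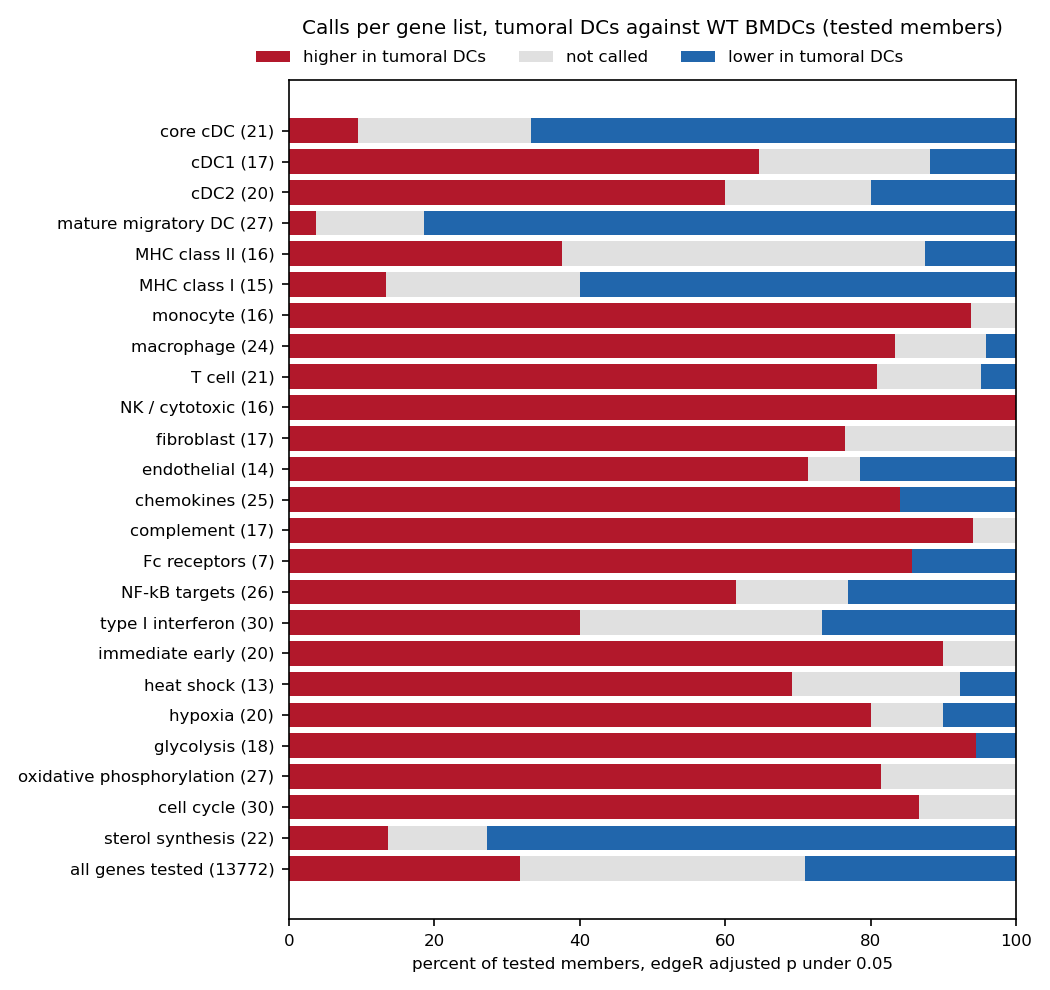
Percent of the tested members of each gene list that passed the edgeR test as higher (red) or lower (blue) in tumoral DCs than in WT BMDCs, with those not called in grey and the number tested in brackets. The bottom bar gives all 13772 genes tested, with 31.8% higher and 29.0% lower.

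Chemokine ligands as a class were higher in 21 of 25 cases and lower in 4, with a median of 4.33, or 4.23 with genes at 0 set to their bound. Their summed CPM overlapped, at 4359 to 7192 in tumoral DCs and 3331 to 5519 in WT BMDCs. Cxcl9, an interferon-gamma-induced ligand of the T cell receptor Cxcr3, had 288 and 212 CPM in late and 418 and 322 CPM in early tumoral DCs, against 2.80 and 4.21 CPM in LPS-treated and 0.178 and 0.372 CPM in unstimulated WT BMDCs. Cxcl2, a neutrophil attractant, had 549 to 1680 CPM in tumoral DCs and 4.26 to 19.6 CPM in WT BMDCs. Cxcl10, which responds to type I and type II interferon, had 166 to 370 CPM in tumoral DCs, 103 and 67.6 CPM in LPS-treated and 2.55 and 6.64 CPM in unstimulated WT BMDCs, and it overlaps Art3 in the annotation. The 4 that passed as lower were Ccl5, Ccl22, Cxcl16 and Cx3cl1. Among 16 chemokine receptors, 10 passed as higher and 2, Ccr6 and Ccr7, as lower (median 2.16). Summed CPM of the receptors was 1709 to 2876 in tumoral DCs and 3861 to 7526 in WT BMDCs, so the sum and the median differ in direction.

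Type I interferon-induced genes lay between the culture states in their summed level. Against WT BMDCs as a whole, 12 of 30 passed as higher and 8 as lower (median 0.06). Against unstimulated WT BMDCs 25 of 30 passed as higher and 1 as lower (median 2.09), and against LPS-treated ones 1 passed as higher and 24 as lower (median −1.45). Over all genes tested, 22.8% were higher and 23.2% lower against unstimulated WT BMDCs, and 29.9% and 28.7% against LPS-treated ones. Within WT BMDCs, where LPS changed 4910 of 13072 genes (37.6%), all 30 rose with LPS. Those 4910 genes split into 2609 higher and 2301 lower with LPS, and scaling by library size alone gave 1689 higher and 3728 lower. Summed over the list, tumoral libraries held 3115 to 4221 CPM, LPS-treated WT BMDCs 6328 to 8966 CPM and unstimulated ones 1201 to 1338 CPM, with no overlap. Mx1 and Stat2 were lower in every tumoral library than in either culture state, and Ifitm3 and Cxcl10 were higher. Of 26 inflammatory genes driven by NF-kB, 16 passed as higher and 6 as lower (median 2.29, or 1.05 without the second early tumoral library). Against LPS-treated WT BMDCs 11 passed as higher and 7 as lower (median 1.05), and the share of lower ones was near that of all genes. Against unstimulated ones 17 passed as higher and 4 as lower (median 3.27). Tnf (3.94), Il1b (2.95) and Ptgs2 (4.54) were among the higher ones, each given as a log2 fold change. The 6 lower ones were Il12b (−3.84), Relb (−2.94), Nfkb2 (−1.89), Birc3 (−1.64), Icam1 (−0.74) and Bcl3 (−0.65).

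Pattern recognition genes leaned higher, with 10 of 19 passing as higher and 2 as lower. Cd14, the co-receptor for LPS, had 1201 and 1024 CPM in late and 375 and 1914 CPM in early tumoral DCs, against 79.9 and 91.0 CPM in LPS-treated and 29.2 and 48.3 CPM in unstimulated WT BMDCs. Tlr9, the DNA sensor, had 67.0 to 113 CPM in tumoral DCs and 121 to 183 CPM in WT BMDCs.

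Immediate early genes, which respond within minutes to stimuli that include tissue dissociation, were higher in 18 of 20 cases (median 1.85), and none passed as lower. Fosb had 1253 and 1283 CPM in late and 1288 and 1256 CPM in early tumoral DCs, against 1.12 and 9.75 CPM in LPS-treated and 17.0 and 91.7 CPM in unstimulated WT BMDCs. Nr4a1 had 832 to 1276 CPM in tumoral DCs and 9.36 to 44.5 CPM in WT BMDCs. In sum over the list, tumoral libraries held 13051 to 16640 CPM and WT BMDC libraries 4050 to 5748 CPM. The sources used here do not state how cells were dissociated or for how long, and its part in the differences was not tested.

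Inducible heat shock genes stood out in the list of chaperones, of which 9 of 13 passed as higher and 1 as lower (median 0.84, or 0.53 without the second early tumoral library). Hspa1a, which encodes inducible Hsp70, had 541 and 1098 CPM in late and 142 and 632 CPM in early tumoral DCs, against 4.04 and 4.50 CPM in LPS-treated and 2.37 and 3.54 CPM in unstimulated WT BMDCs. Its tandem copy Hspa1b had 181 to 1555 CPM in tumoral DCs and 1.84 to 11.2 CPM in WT BMDCs. Hspa8, the constitutive family member, was the gene nearest to the edge of the rule and was not called (log2 fold change 0.20). The promoters of the inducible pair are shown because both hold the same heat shock element and because the copies are nearly identical, so that reads may be shared between them. The sequences are the 250 bases before the start site in RefSeq on GRCm38.p6, at chr17:34972157-34972406 for Hspa1a and chr17:34959239-34959488 for Hspa1b, both on the minus strand, written 5′ to 3′ with each match to GAANNTTC in capitals.
Hspa1a: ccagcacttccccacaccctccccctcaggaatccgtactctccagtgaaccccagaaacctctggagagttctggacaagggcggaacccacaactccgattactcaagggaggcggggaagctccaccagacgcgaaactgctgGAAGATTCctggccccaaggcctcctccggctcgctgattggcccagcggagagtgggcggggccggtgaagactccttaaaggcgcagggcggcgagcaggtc
Hspa1b: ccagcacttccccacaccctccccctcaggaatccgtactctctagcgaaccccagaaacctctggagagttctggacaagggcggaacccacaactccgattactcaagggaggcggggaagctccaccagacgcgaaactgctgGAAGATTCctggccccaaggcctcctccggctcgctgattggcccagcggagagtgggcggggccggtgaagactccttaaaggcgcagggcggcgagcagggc
The motif reads the same on both strands. It had 1 match in each promoter, starting 104 bases before the start site, and 6.69% of 32851 promoter windows of that length held it. The 2 sequences were identical at 247 of 250 positions (98.8%).

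Metabolic genes differed by pathway. Of 18 glycolysis genes, 17 passed as higher and 1 as lower (median 1.63), and summed CPM ran from 17294 to 26934 in tumoral DCs and from 5342 to 7328 in WT BMDCs. Tpi1, which encodes triosephosphate isomerase, had 1323 and 1595 CPM in late and 1003 and 827 CPM in early tumoral DCs, against 134 and 150 CPM in LPS-treated and 152 and 137 CPM in unstimulated WT BMDCs. Eno2, the neuronal enolase isoform, was the exception, with 3.37 to 7.35 CPM in tumoral DCs and 26.3 to 62.3 CPM in WT BMDCs. The libraries labelled Pde5 knockout held 7018 to 16372 CPM summed over the glycolysis list, and their Tpi1 values overlapped the tumoral range. Of 20 hypoxia-induced genes, 16 passed as higher and 2 as lower (median 2.31). Their summed CPM was 2045 to 4985 in tumoral DCs, 5672 and 5528 in LPS-treated and 2712 and 2181 in unstimulated WT BMDCs, so the sum lay below both LPS-treated libraries and overlapped the unstimulated ones, while the median was positive against each. Slc2a1, the glucose transporter GLUT1, had 921 and 824 CPM in late and 301 and 474 CPM in early tumoral DCs, against 39.5 to 52.4 CPM in WT BMDCs. Pfkfb3, a glycolytic regulator, was lower at 247 to 428 CPM in tumoral DCs against 3476 and 3413 CPM in LPS-treated and 1437 and 1086 CPM in unstimulated WT BMDCs.

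Nuclear genes of oxidative phosphorylation were higher in 22 of 27 cases, by a median of 0.56. Cholesterol synthesis genes were lower in 16 of 22 cases and higher in 3 (median −0.81). Idi1, an enzyme of the isoprenoid step of that pathway, had 19.8 to 29.4 CPM in tumoral DCs and 88.4 to 112 CPM in WT BMDCs, and Hmgcs1, which acts near its entry, had 65.8 to 79.6 CPM in tumoral DCs and 146 to 242 CPM in WT BMDCs. The summed level of the list was 1395 to 1512 CPM in tumoral DCs and 1891 to 3195 CPM in WT BMDCs. Of 26 lysosomal genes, 16 passed as higher and 3 as lower (median 0.45). Cell cycle genes passed as higher in 26 of 30 cases (median 1.23), with 12.8 to 49.6 CPM of Ccne1, the cyclin of entry into DNA synthesis, in tumoral DCs and 3.47 to 7.13 CPM in WT BMDCs.

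Immunoregulatory genes differed in both directions. Beside Arg1, the inducible nitric oxide synthase gene Nos2 had 398 and 194 CPM in late and 81.2 and 180 CPM in early tumoral DCs, against 23.0 and 23.3 CPM in LPS-treated and 0.592 and 0.310 CPM in unstimulated WT BMDCs, while Ido1 and Ido2 were lower as given above. Il10, an anti-inflammatory cytokine gene, had 19.1 to 51.8 CPM in tumoral DCs and 0.178 to 1.29 CPM in WT BMDCs. Cd274, which encodes PD-L1, had 185 to 351 CPM in tumoral DCs, 875 and 759 CPM in LPS-treated and 284 and 188 CPM in unstimulated WT BMDCs. It passed as lower against LPS-treated WT BMDCs (−1.75, SE 0.289, edgeR adjusted p = 0.00127) and was not called against unstimulated ones (0.28, edgeR adjusted p = 0.475). Of 21 checkpoint and immunoregulatory genes, 10 passed as higher and 6 as lower (median 0.73, or 1.11 without the first and 0.09 without the second early tumoral library). Over all genes tested 31.8% were higher and 29.0% lower, so the share of lower ones in the list was near that of all genes. Pde5a, the gene of the knockout label, had 1.63 to 3.95 CPM in tumoral DCs and 1.15 to 3.26 CPM in WT BMDCs and was not called.

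Markers of some other cell types that a tumor sort could hold were also higher in tumoral DCs. All 16 genes of natural killer and cytotoxic cells passed as higher (median 4.12), and 17 of 21 T cell genes passed as higher and Tcf7 as lower (median 3.72). Cd3e, a chain of the T cell receptor complex, had 9.41 and 3.60 CPM in late and 64.9 and 25.9 CPM in early tumoral DCs, against 0.560 and 0.289 CPM in LPS-treated and 0.829 and 0.434 CPM in unstimulated WT BMDCs. Prf1, which encodes perforin, had 51.6 and 17.5 CPM in late and 304 and 124 CPM in early tumoral DCs, against at most 0.808 CPM in WT BMDCs. Summed CPM of the cytotoxic list was 437 and 172 in late and 1831 and 1314 in early tumoral DCs, against 52.6 to 71.7 in WT BMDCs. For the T cell list it was 420 and 268 in late and 1033 and 804 in early tumoral DCs, against 520 to 731 in WT BMDCs, so the ranges overlapped. Tcf7, a transcription factor of T cells and of DC progenitors, had 13.6 to 34.2 CPM in tumoral DCs and 259 to 401 CPM in WT BMDCs. No defining T or natural killer marker was at 0 in a tumoral library, and the part of these cells in the differences was not tested.

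Of 17 fibroblast genes, 13 passed as higher (median 2.93), and Col1a1, a chain of type I collagen, had 66.6 and 22.5 CPM in late and 264 and 97.3 CPM in early tumoral DCs, against 8.37 to 12.3 CPM in WT BMDCs. Summed over that list, tumoral libraries held 138 to 1489 CPM and WT BMDC libraries 42.7 to 67.1 CPM. Of 14 endothelial genes, 10 passed as higher and 3 as lower (median 3.17). Among the 7 with a mean of at least 10 CPM in a group, 5 passed as higher and 2 as lower (median 1.13). Summed CPM of the endothelial list overlapped, at 174 to 307 in tumoral DCs and 129 to 242 in WT BMDCs. Cdh5, the endothelial cadherin, had 4.95 to 16.7 CPM in tumoral DCs and 0.118 to 0.616 CPM in WT BMDCs. Kdr, an endothelial growth factor receptor, had 24.9 to 39.7 CPM in tumoral DCs and 139 and 138 CPM in LPS-treated and 13.7 and 24.3 CPM in unstimulated WT BMDCs. Epithelial keratins were at or near 0, with at most 0.424 CPM of Krt18 in tumoral DCs and 0.434 CPM in WT BMDCs, and at most 0.259 CPM of Krt8 in tumoral DCs and 0.0577 CPM in WT BMDCs. Of 5 tested epithelial genes 2 passed as higher, among them Cdh1 at 17.8 to 48.5 CPM in tumoral DCs and 8.65 to 20.9 CPM in WT BMDCs.

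Of 12 mast cell and basophil genes, 4 passed as higher and 5 as lower. Mcpt4, a protease of connective tissue mast cells, had 1.39 to 13.1 CPM in tumoral DCs and no count in WT BMDCs, at least 138-fold higher. Cma1, another, had 1.52 to 7.26 CPM in tumoral DCs and no count in WT BMDCs, at least 94.0-fold higher. Mcpt8, a protease of basophils, had at most 0.363 CPM in tumoral DCs and 1.30 to 6.64 CPM in WT BMDCs. Of 16 neutrophil genes, 3 passed as higher and 4 as lower, or 8 as lower without the first late tumoral library. That library held 54.5 CPM of S100a8, a granulocyte alarmin, against 4.17 to 9.41 CPM in the other tumoral libraries, and 91.3 CPM of its partner S100a9, against 4.17 to 15.5 CPM. Elane, which encodes neutrophil elastase, had no count in tumoral DCs, and Ly6g, a surface marker of neutrophils, had counts in that library alone among them. Ngp, a granule protein of neutrophil precursors, had at most 0.316 CPM in tumoral DCs and 7.06 to 46.4 CPM in WT BMDCs. Of 9 tested B cell genes, 2 passed as higher and 1 as lower. Among 18 genes listed for plasmacytoid DCs, 7 passed as higher and 4 as lower, and Siglech, their defining receptor, was not called at 7.84 to 41.1 CPM in tumoral DCs and 1.35 to 51.1 CPM in WT BMDCs.

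Genes of pigment cells appeared among the widest gaps, and the list of 14 such genes was drawn up after these values were seen. All 14 were higher in every tumoral library, a direction that the choice of the list fixes in part. Tyrp1, an enzyme of melanin synthesis, had 110 and 52.3 CPM in late and 132 and 54.8 CPM in early tumoral DCs, against no count in any of the 8 BMDC libraries, knockout-labelled ones included, and was at least 2039-fold higher than in WT BMDCs. Dct, the tautomerase of the same pathway, had 187 and 60.1 CPM in late and 254 and 56.1 CPM in early tumoral DCs and 2 counts over the WT BMDC libraries, a ratio of 4962 (95% counting interval 1373 to 40978). Tyr, which encodes tyrosinase, had 21.7 and 3.25 CPM in late and 22.7 and 5.28 CPM in early tumoral DCs and no count in WT BMDCs. Sox10, a transcription factor of neural crest cells, had 4.35 to 23.6 CPM in tumoral DCs and 1 count over the WT BMDC libraries. Mitf, which drives pigment genes and is also expressed in myeloid cells, differed less, with 32.1 to 56.3 CPM in tumoral DCs and 14.9 to 24.3 CPM in WT BMDCs.

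Within each stage, nearly all pigment genes had the same library on top. Summed over the list, the late tumoral libraries held 567 and 273 CPM and the early ones 737 and 262 CPM, against 21.4 to 31.3 CPM in WT BMDCs. The first late library was above the second for 13 of 14 genes and the first early library above the second for 14 of 14. MC38 is not a pigmented line, and no label names pigment cells, so neither the source of these transcripts nor the tumor label was tested.

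Promoters of 3 of them are shown because these genes respond to Mitf, which binds the E-box CATGTG. The sequences are again the 250 bases before the RefSeq start site on GRCm38.p6, 5′ to 3′, with CATGTG or its reverse complement CACATG in capitals, at chr4:80833963-80834212 (plus strand) for Tyrp1, chr14:118052247-118052496 (minus strand) for Dct and chr7:87493513-87493762 (minus strand) for Tyr.
Tyrp1: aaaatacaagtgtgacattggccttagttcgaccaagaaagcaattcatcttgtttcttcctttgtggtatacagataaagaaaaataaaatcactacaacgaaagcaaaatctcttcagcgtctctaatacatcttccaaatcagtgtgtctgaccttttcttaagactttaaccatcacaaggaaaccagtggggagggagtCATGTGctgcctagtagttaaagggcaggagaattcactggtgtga
Dct: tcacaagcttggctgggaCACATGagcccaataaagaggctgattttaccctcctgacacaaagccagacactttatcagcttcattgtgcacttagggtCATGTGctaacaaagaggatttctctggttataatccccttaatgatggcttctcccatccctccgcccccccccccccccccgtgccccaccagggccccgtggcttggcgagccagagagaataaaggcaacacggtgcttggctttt
Tyr: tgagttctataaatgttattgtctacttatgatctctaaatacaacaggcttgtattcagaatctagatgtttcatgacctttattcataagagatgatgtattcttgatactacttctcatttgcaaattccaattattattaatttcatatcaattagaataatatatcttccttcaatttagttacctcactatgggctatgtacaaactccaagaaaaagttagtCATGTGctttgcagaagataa
Tyrp1 held 1 match, starting 46 bases before the start site, Tyr 1 match at 21 bases, and Dct a match on each strand. Of 32851 promoter windows of the same length, 12.3% held at least 1.

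**Figure D5:**
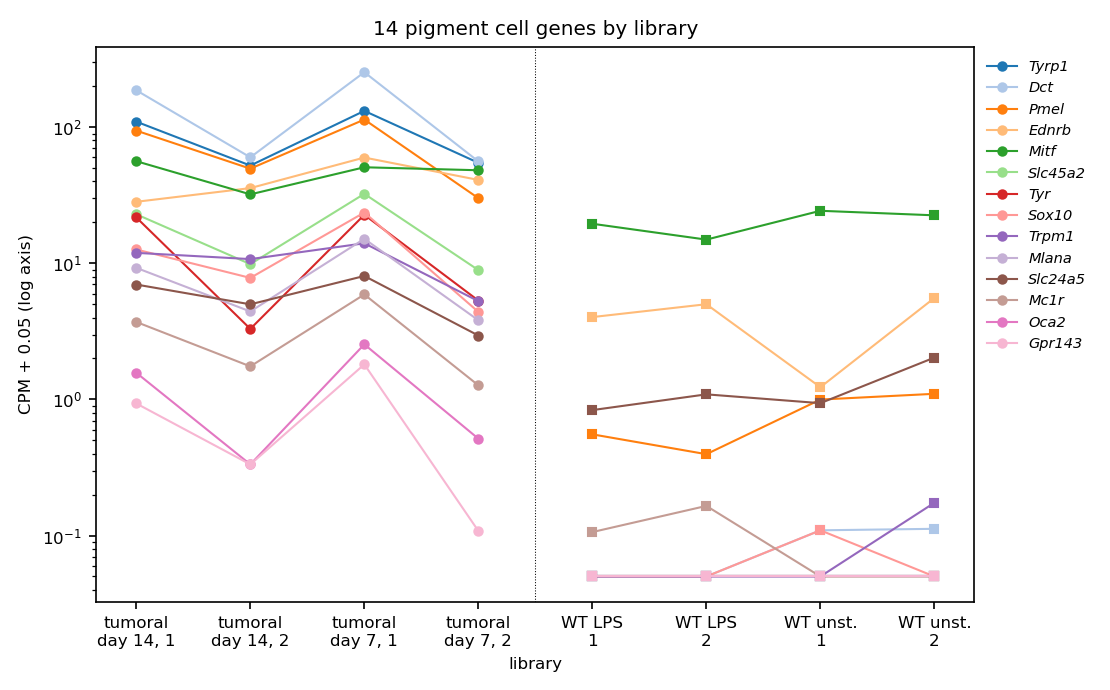
CPM + 0.05 on a log axis for 14 pigment cell genes in each library, tumoral DCs at the left (circles) and WT BMDCs at the right (squares). Thin lines join the values of 1 gene within a source and mark no order of replicates. All genes lie higher in the tumoral libraries, and 6 have no count in WT BMDCs.

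Time in the tumor moved few genes past the test. Between late and early tumoral DCs, 3 of 13040 genes (0.023%) passed in edgeR, all lower in the late libraries, and 1438 had an unadjusted p under 0.05. Lck, the kinase of T cell receptor signalling, had 18.4 and 14.2 CPM in late and 94.0 and 72.9 CPM in early tumoral DCs (log2 fold change −2.25, SE 0.233, adjusted p = 0.0444), against 1.15 to 2.54 CPM in WT BMDCs. Cd226, an activating receptor of T and natural killer cells, and Sytl2, a granule-docking protein, were the others. DESeq2 called 311 genes in this contrast. Of the lists, T cell genes had a median late over early log2 fold change of −2.34, cytotoxic genes −2.10 and fibroblast genes −1.88, beside 0.01 over all genes. The median was 1.30 over 5 tested B cell genes, −1.05 for interferon-gamma-induced genes, −1.01 for mast cell and basophil genes and 0.94 for hypoxia genes. Lck was the only member of these lists that passed.

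Stimulation in the dish touched part of the same genes. Cd209a fell with LPS, with no count in LPS-treated and 4.44 and 11.2 CPM in unstimulated WT BMDCs (edgeR adjusted p = 0.00396). Clec9a (−2.21, SE 0.223, edgeR adjusted p = 0.000396) and Xcr1 (−2.02, SE 0.407, edgeR adjusted p = 0.00582) fell as well. Ccr7 rose with LPS (1.24, SE 0.17, edgeR adjusted p = 0.00111), as did Fscn1, Zbtb46 and Apol7c, by 1.11, 1.14 and 0.76. Cxcl9, Nos2 and Cxcl10 rose by 3.85, 5.85 and 4.43. For all 3 genes the LPS-treated WT BMDCs still lay below every tumoral library. The libraries labelled Pde5 knockout overlapped the tumoral range for Nos2 and lay below it for Cxcl9 and Cxcl10. Tests within WT BMDCs share the WT libraries with the comparison of sources, and the knockout-labelled libraries entered their estimate of spread.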

How the data were processed

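RNA sequencing counts per gene were analysed for 4 tumoral and 4 WT BMDC libraries, with 4 further BMDC libraries labelled Pde5 knockout. The authors deposited raw counts in 2 tables, and the tools listed per the submitters' processing notes are featureCounts 2.0.1, HISAT2 2.2.1 and fastp 0.12.4, with mm10 as the build. The strand setting, the annotation and how multiply mapped reads were handled: not given in the sources used here. All columns were mapped to a sample. The tables were joined by symbol, and CPM, a count scaled to the same total in every library, was taken over totals of 14153700 to 19293261, so intervals and floors cover counting error only.

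Differential expression was tested in R 4.3.3 with edgeR 4.0.16 (TMM scaling, filterByExpr, robust quasi-likelihood fit, Benjamini-Hochberg adjustment over all genes tested, called under 0.05). The 8 libraries shared 1 fit with a mean per group, while late against early was fitted in the 4 tumoral libraries. LPS against unstimulated was fitted in all 8 BMDC libraries of their table. The knockout-labelled ones had their own group means there and shared the filter and the estimate of spread. The tests were checked on simulated data. DESeq2 1.42.0 and limma 3.58.1 served as alternatives. Genes named were the 20 widest gaps in each direction with a mean of at least 10 CPM in the higher source, up to 2 separated members of each list and direction with a mean of at least 2 CPM there, fixed DC genes and cell type markers. The neighbouring genes, pigment genes, late against early genes and a few list members given with a fold change were named after their values were seen. The members and lists were chosen with earlier results of these data known. Several genes are members of several lists, so the counts of those lists are not independent. Among the genes with values here, Ccl3, Ccl4, Ccl6, Cd274, Cd74, Ciita, Cxcl10, Dok2, Stat2, Tcf7, Tpi1 and Zbtb46 overlap another gene in the annotation. A few genes are not reported here.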

Additional observations from a re-analysis of the deposited data

Results flagged for a closer look

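In 246 sets of 4 libraries, 1 per gene and source, 21 held a library far from the other 3. The gap to the nearest library was past Dixon's tabled 95% value in each of the 21. Chance gives about 1 in 20 for 4 like values from a normal distribution. Each set here mixes late with early or LPS-treated with unstimulated libraries, so the 21 cannot be judged against that rate. A gene with counts in 1 library alone also passes whatever its count, as for Krt8, Ly6g, Scube1 and Sox10 below. Why these libraries lay apart was not tested.

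In tumoral DCs, the first early library held 98.6 CPM of Ccl22 (265 to 290 CPM in the others), 91.4 CPM of Fscn1 (353 to 397 CPM), 49.6 CPM of Ccne1 (12.8 to 17.6 CPM), 0.466 CPM of Ido2 (at most 0.0707 CPM) and 0.259 CPM of Krt8, which had no count in the others. The second early library held 86.7 CPM of Kit (38.8 to 46.1 CPM in the others). The first late library held 54.5 CPM of S100a8 (4.17 to 9.41 CPM), 91.3 CPM of S100a9 (4.17 to 15.5 CPM), 74.1 CPM of Clec10a (123 to 130 CPM) and 543 CPM of Irf8 (640 to 653 CPM). It alone had counts of Ly6g (0.442 CPM) and Scube1 (0.0631 CPM). The second late library held 57.6 CPM of Ccl5 (164 to 179 CPM) and 0.424 CPM of Krt18 (at most 0.0631 CPM).

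In WT BMDCs, the second LPS library held 0.808 CPM of Prf1 (at most 0.118 CPM in the others) and 0.0577 CPM of Krt8, which had no count in the others. The first LPS library held 0.504 CPM of Apol7a (0.0577 to 0.124 CPM). The second unstimulated library held 6.64 CPM of Mcpt8 (1.30 to 1.90 CPM) and 1.55 CPM of Ccl1 (0.112 to 0.296 CPM). The first unstimulated library alone had counts of Ly6g and Sox10, both at 0.0592 CPM.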

How the results depend on the processing

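Of the comparisons, late against early tumoral DCs depended most on the processing. In place of 3 genes, edgeR called 0 with DESeq2 size factors (0 is below the 1438 at an unadjusted p under 0.05 in the fit reported), 28 with library size alone (7 higher and 21 lower), 689 without a filter and 173 with the replicate number as a block, and DESeq2 called 311. Leaving out 1 library gave 0 to 1063, with 1063 and 572 without the first and second early library and 0 without either late one. The cause was not tested.

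Between sources, leaving out 1 library gave 6921 to 8678 calls. Against unstimulated WT BMDCs it gave 3303 to 6887 (3303 and 3774 without the first and second unstimulated library), and against LPS-treated ones 5296 to 8480 (5296 without the first LPS library). LPS against unstimulated gave 2676 to 4100, with 2915, 2676 and 3226 without the second unstimulated, the first LPS and the second LPS library. A change of more than 2-fold left 4633 of the 8366 calls. Separated genes numbered 1213 with a gap of at least 2-fold, 9890 against LPS WT BMDC libraries alone, and 6771 to 7741 with 1 library left out, where fewer libraries make separation easier. Scaling by library size alone moved the median of all genes by 0.15 (log2) in tumoral DCs against LPS-treated WT BMDCs, by −0.20 for LPS against unstimulated and by −0.11 for late against early. It gave 1689 higher and 3728 lower genes for LPS, in place of 2609 and 2301.

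The deviations of same-numbered libraries correlated at −0.032 to 0.059 in 5 pairs of groups and at 0.248 between LPS-treated and unstimulated WT BMDCs, and with 2 libraries per group and no label behind the numbers, a pairing was not taken from them. With the replicate number as a block, 8160 genes were called between sources, 6086 against unstimulated, 7821 against LPS-treated WT BMDCs and 4881 for LPS. With 1 library left out, the log2 fold change of 5 genes changed sign, counting only genes called in the fit reported or in the altered fit. Sign changes of genes called in neither fit were not counted. That of S100a9 between sources ran over −1.56 to 0.63, with −1.56 without the first late library. Late over early, Ccr7 ran over −0.78 to 1.68 and Cd14 over −0.77 to 1.78, both highest without the second early library. For Dct, late vs early tumoral values ran over −1.18 to 1.13, highest without the first early library. Ly6c2 with LPS ran over −0.80 to 1.08, highest without the second unstimulated library. None of these 5 values was called in the fit reported. With 2 libraries per group, and source and table in step, a difference between sources cannot be assigned to either.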

Other observations

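Of 21 tested genes listed for alternatively activated and cytokine-exposed myeloid cells, 11 passed as higher and 4 as lower in tumoral DCs than in WT BMDCs (median log2 fold change 2.53). The lower ones were Ccl22, Socs2, Csf2rb and Csf2rb2. Summed over the list, tumoral libraries held 1945 to 4638 CPM and WT BMDC libraries 7255 to 9556 CPM, so the sum and the median differ in sign.

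Of 21 interferon-gamma-induced genes, 12 passed as higher and 5 as lower (median 0.59), and against LPS-treated WT BMDCs 4 passed as higher and 12 as lower (median −0.75), where 58.5% of all genes were called. Against unstimulated ones, where 46.0% were called, 15 passed as higher and 2 as lower (median 1.89). Of 19 lipid handling genes, 10 passed as higher and 2 as lower (median 0.93, or 0.57 without the second early tumoral library). Of 5 tested erythroid and platelet genes, 2 passed as higher and 1 as lower, with summed CPM of 15.7 to 92.8 in tumoral DCs and 10.2 to 44.4 in WT BMDCs.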
